A study of Arabidopsis thaliana with 12 samples.

Results

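The chloroplast keeps a small genome of its own, and 69 of the 22746 Arabidopsis thaliana probe sets analysed here are assigned to a single gene of that genome by the annotation used. They were taken from the platform annotation by gene symbol at every signal level, with mitochondrial genes left out. By function, 43 encode parts of the photosynthetic apparatus, 20 encode the gene expression machinery and 6 have other roles. The photosynthesis genes comprise 5 of photosystem I, 15 of photosystem II, 6 of the cytochrome b6f complex, 6 of ATP synthase, 10 of the NDH complex and rbcL, the large subunit of Rubisco. The gene expression genes comprise 4 subunits of the plastid RNA polymerase, 8 proteins of the small ribosomal subunit, 7 of the large subunit and matK, an intron maturase. The other 6 are clpP (a protease subunit), accD (a subunit of acetyl-CoA carboxylase), the assembly factors ycf3, ycf4 and ccsA, and the envelope protein gene cemA.

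Plastid genes are read by different RNA polymerases. The plastid-encoded polymerase has a bacterial-type core, made from rpoA, rpoB, rpoC1 and rpoC2, and takes its sigma factors from the nucleus. The nucleus-encoded polymerase is a phage-type enzyme. In leaves, photosystem genes and rbcL are read mainly by the plastid-encoded enzyme, whereas the rpoB operon and accD are read mainly by the nucleus-encoded enzyme, and most other plastid genes can use both. Many plastid genes lie in operons and are transcribed together, then cut and spliced. On this textbook division, with the cytochrome b6f genes placed beside the photosystem genes, 27 members belong to the plastid-encoded polymerase class. The nucleus-encoded class holds 4 (rpoB, rpoC1, rpoC2 and accD), and 38 belong to both.

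The samples were rosette leaves on 12 ATH1 arrays, in 4 groups of 3 arrays: Col-0 without a construct at growth stages 1.05 and 1.14, and Col-0 plants carrying an RNAi construct against SPH1, named as a signalling protein in the study's title, at the same stages. Growth stages of this kind count rosette leaves, so stage 1.14 is the older rosette. All groups were grown on compost under the same greenhouse settings with Intersept as the labelled treatment, and the design text gives 40 plants pooled. No probe set could be tied to SPH1 from the labels and the annotation, so the knockdown was not checked here. Replicate 3 of SPH1 RNAi at stage 1.14 lacks the construct in its own label and was placed by its source name. It and replicate 2 of that group have titles ending in "repeat". Nothing in the labels says whether replicates were separate cultures, so the p-values describe array-to-array spread, which may be technical. In such leaf extracts fewer cells of a type and less RNA per cell cannot be told apart.

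RNA was labelled from an oligo-dT primer, which selects for poly(A) tails, and most plastid transcripts have none or short ones. The signals below are therefore compared between arrays for the same probe set and never between genes. Signals are linear intensities, and the trimmed mean over probe sets was 100.01 on every array. The 69 members held 2.52% to 4.32% of the summed signal of an array. Background ranged from 68.5 to 136.5, highest on SPH1 RNAi stage 1.14 replicate 3. The leaf gene RCA (Rubisco activase) was the only 1 of 7 leaf markers named in the annotation used here, which names 14016 of 22810 probe sets, and gave 2798 to 5230. Of 5 root markers, PYK10 and JAL22 were named. In Col-0 their summed signal was 389 to 657 on the younger arrays and 21 to 28.4 on the older ones. In SPH1 RNAi it was 374 to 647 at stage 1.05 and 46.5 to 385 at stage 1.14. Both root genes passed as lower at stage 1.14 in each genotype, and their part in the stage results was not tested. None of the 5 flower or 4 seed markers was named, so these were not analysed here.

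In Col-0, genes for the plastid's own transcription and translation included several that were lower in the older rosette, most of them for ribosomal proteins. Of the 20 gene expression genes 7 fell and none rose, and of the 43 photosynthesis genes 1 fell and none rose. That is 35% and 2.33% of each subset, beside 44.6% of the 13263 tested probe sets called in either direction, 21% called lower and 23.7% called higher (limma, adjusted p under 0.05). In all 8 of 69 members were called, a share that is not above this background. The median difference, stage 1.14 minus stage 1.05 of log2(signal + 16), was -0.74 over the gene expression genes, -0.15 over the photosynthesis genes and 0.02 over all tested probe sets. After quantile normalization the medians were -0.41 and 0.11, so the sign of the photosynthesis median depends on the scaling. Without Col-0 stage 1.05 replicate 2 they were -0.54 and -0.02, and the photosynthesis median was -0.08 without stage 1.14 replicate 1.

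**Figure D1:**
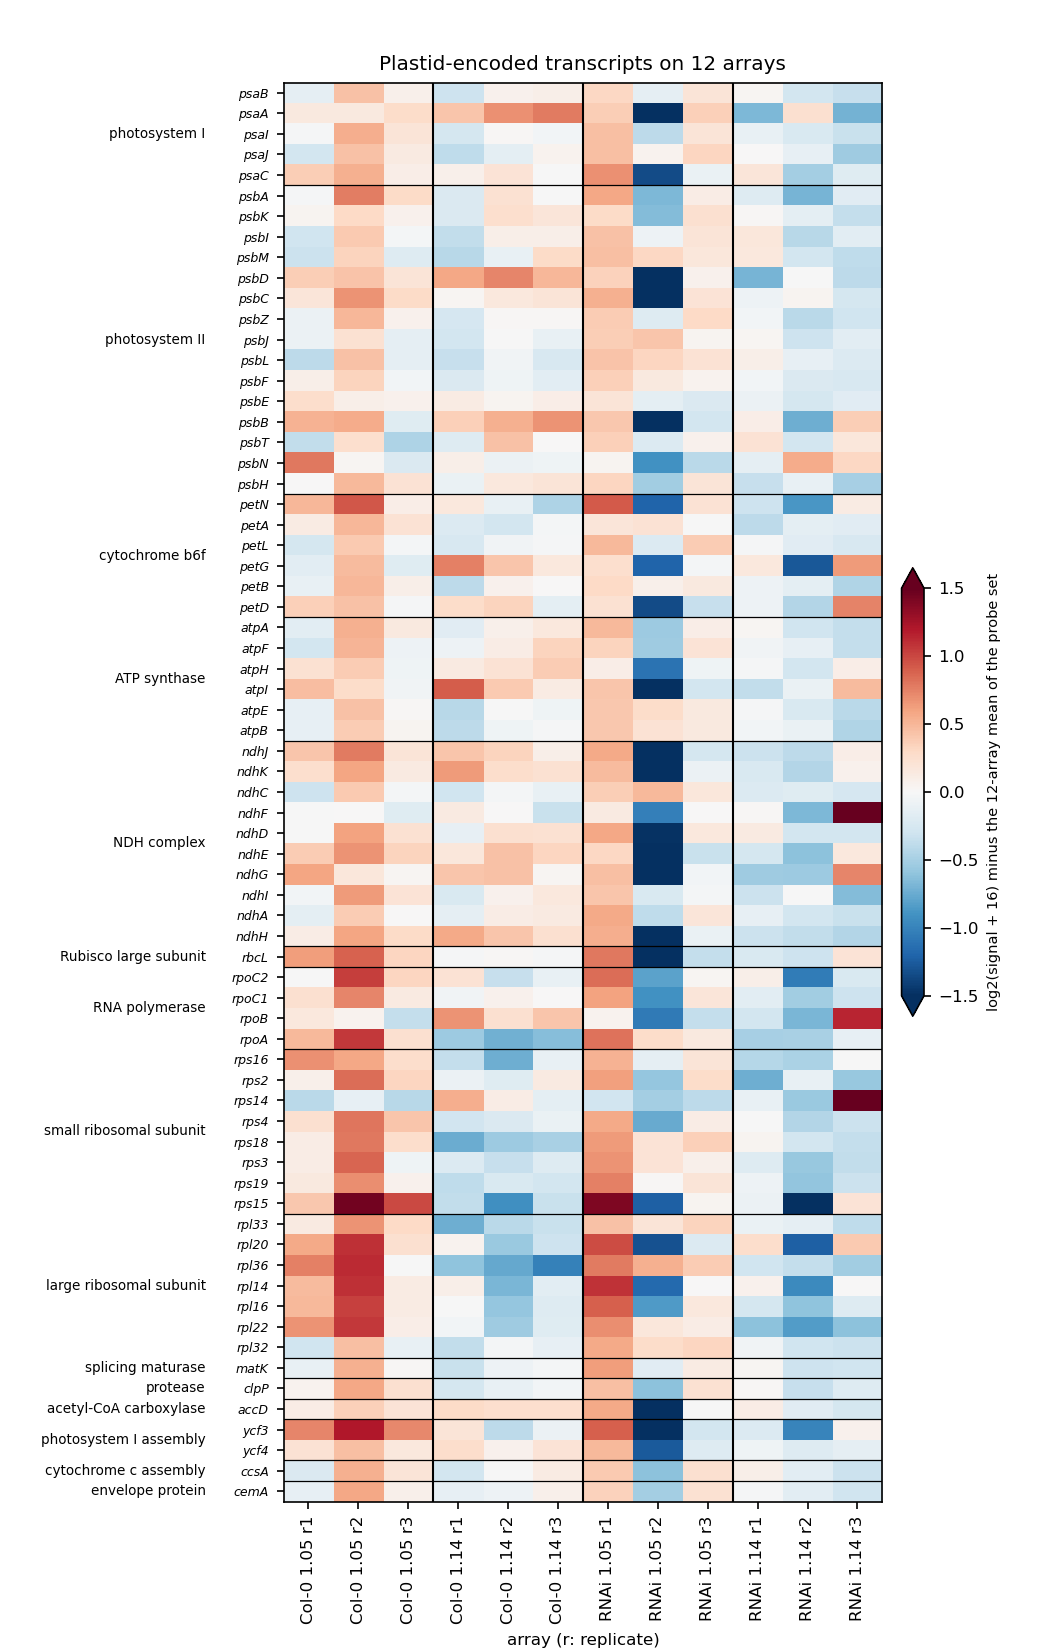
Each row is 1 of the 69 plastid-encoded probe sets, grouped by function, and each column 1 of the 12 arrays. Colour gives log2(signal + 16) minus the probe set's mean over the 12 arrays, with red above and blue below. Ribosomal rows are mostly red at Col-0 stage 1.05 and blue at stage 1.14, and SPH1 RNAi stage 1.05 replicate 2 is the bluest column, lowest of the 12 in 36 rows.

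The gene rpoA encodes the alpha subunit of the plastid polymerase. Its signal was 1242, 1855 and 1045 on the 3 Col-0 arrays of stage 1.05, 600, 527 and 560.1 at stage 1.14, 1556, 1072 and 977 in SPH1 RNAi at stage 1.05 and 619, 622 and 807 at stage 1.14. The 2 stages did not overlap in either genotype, and rpoA fell by 1.23 ± 0.22 (log2 difference, SE, n = 3 a group) in Col-0 with adjusted p = 0.00084 by limma, or 2.35-fold. The other 3 subunit genes did not pass. rpoC1 gave 1298, 1829.6 and 1209.9 and then 1060.5, 1151 and 1099.6 in Col-0, a difference of -0.36 ± 0.30 that missed the threshold (limma, adjusted p = 0.359). rpoC2 gave 645, 1344 and 809 and then 751, 505 and 598, with overlapping groups and a difference of -0.53 (limma, adjusted p = 0.306). rpoB, a beta subunit gene with low signal, gave 60.2, 55.1 and 37.2 and then 92.7, 65 and 75.5, a difference of 0.49 (limma, adjusted p = 0.335) in the other direction. In Arabidopsis rpoA lies apart from the operon that holds these 3 genes.

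Among the ribosomal protein genes, rpl36 had the largest change that passed. It gave 828, 1069 and 482 on the younger and 312, 278 and 231 on the older Col-0 arrays, and in SPH1 RNAi 839, 708 and 634 and then 388, 372 and 332. The stages did not overlap, and it fell by 1.42 ± 0.24 in Col-0 (limma, adjusted p = 0.000516), 2.67-fold. For rps18 the Col-0 signals were 493, 800.3 and 552 and then 265, 307 and 322, again without overlap, a fall of 0.98 ± 0.19 (limma, adjusted p = 0.00153). Its neighbour rpl33 went from 2089.9, 3059 and 2356 to 1140.2, 1439 and 1508, a fall of 0.86 ± 0.17 (limma, adjusted p = 0.00144). Every stage 1.05 array was above every stage 1.14 array for these genes in Col-0.

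For rps16, whose gene carries an intron, the Col-0 signals were 378, 351 and 278 and then 175, 131 and 212. They did not overlap, and rps16 fell by 0.91 ± 0.21 (limma, adjusted p = 0.00441). For rpl22 they were 1474, 1930.1 and 978 and then 887, 626 and 808, a fall of 0.86 ± 0.24 (limma, adjusted p = 0.0113). The rpl22 call was lost without Col-0 stage 1.05 replicate 2, the array on which 39 of the 69 members were highest, where its adjusted p by limma was 0.0574, and after quantile normalization (limma, adjusted p = 0.0532). The naming rule stopped at these 6. The remaining pair that fell, rps19 and petA, is named after the values were seen. rps19 went from 1602, 2357 and 1507 to 1105, 1227 and 1193 (fell by 0.60, adjusted p = 0.0426 by limma). petA, for cytochrome f and the only photosynthesis gene to pass, went from 2322, 3002 and 2475 to 1835, 1754 and 2078 (fell by 0.45, adjusted p = 0.0212 by limma). These calls were less stable. That of rps19 passed in 12 of 22 alternatives and was lost without any 1 of 7 of the 12 arrays. That of petA passed in 18 and was lost after quantile normalization and without Col-0 stage 1.05 replicate 2 or stage 1.14 replicate 1 or 2.

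**Figure D2:**
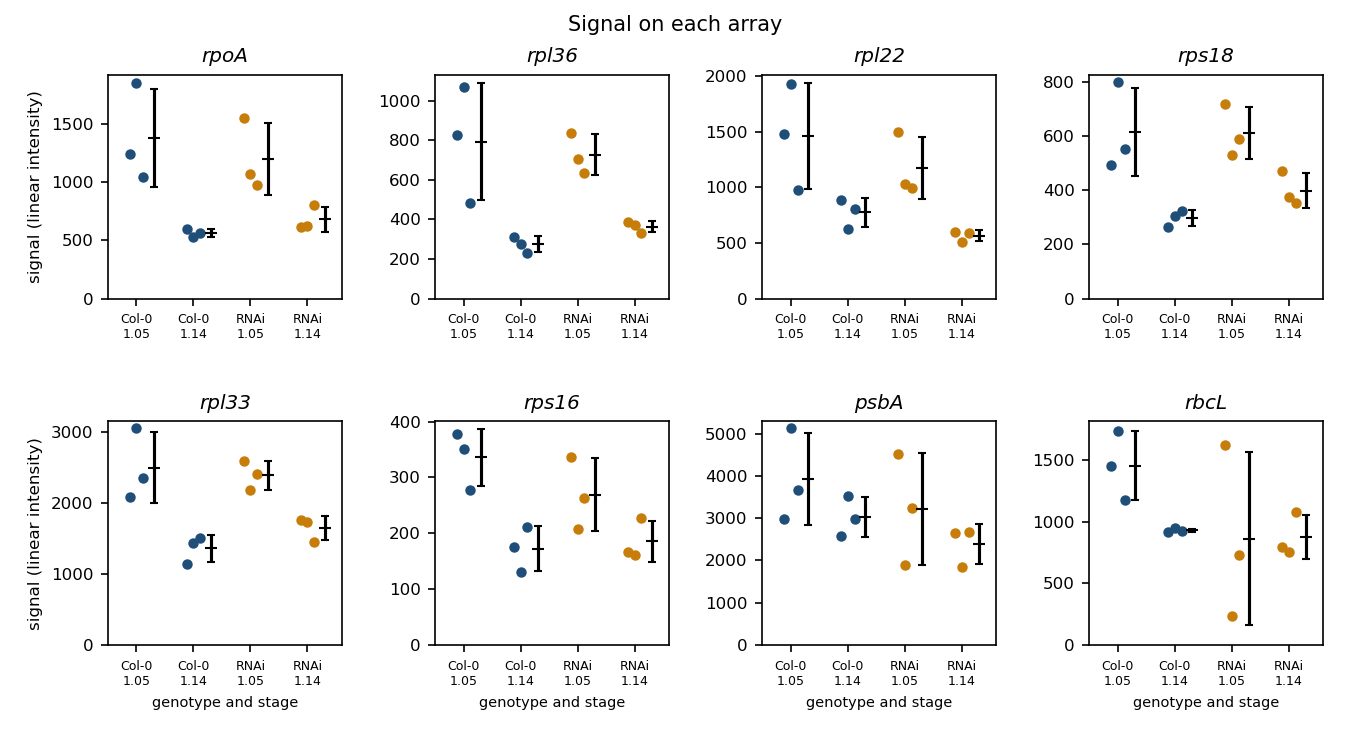
Points are signals (linear intensity, axis from 0) on each array for the 6 named genes that fell with stage in Col-0 and for psbA and rbcL. Blue marks Col-0 and orange SPH1 RNAi, and the bar beside each group is its mean ± SD (n = 3). For rpoA, rpl36 and rpl22 the stages do not overlap in either genotype, and rbcL spreads from 237 to 1622 within SPH1 RNAi stage 1.05.

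Most photosynthesis genes did not pass in Col-0, among them the best known core genes. psbA, for the D1 protein of photosystem II, gave 2982, 5126 and 3676 at stage 1.05 and 2587, 3526 and 2989 at stage 1.14, and the groups overlapped. The difference was -0.35 ± 0.29 (limma, adjusted p = 0.362), with a 95% interval of -0.98 to 0.29. The photosystem I core genes psaA and psaB, which are neighbours in 1 operon, had differences of opposite sign. psaA gave 1769, 1768 and 1934 and then 2126, 2580 and 2751, higher on every older array, though the difference of 0.44 missed the threshold (limma, adjusted p = 0.511). psaB gave 3354, 4984 and 3874 and then 2972, 3831 and 3920, a difference of -0.18 (limma, adjusted p = 0.464) with overlap. rbcL gave 1449.7, 1734 and 1176 and then 919.5, 945 and 921. These did not overlap, and the difference of -0.62 ± 0.47 missed the threshold (limma, adjusted p = 0.314), in a fit that pools the spread of all 4 groups. Fitted on the 6 arrays compared alone, rbcL passed as lower (limma, adjusted p = 0.0125), and psaA and rpoB passed as higher (limma, adjusted p = 0.0317 and 0.047).

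Within the photosynthesis subset the Col-0 stage differences ran from -0.64 for petN, a small subunit of cytochrome b6f, to 0.44 for psaA. petN gave 756, 1022 and 567 and then 594, 491 and 379.5, with a limma adjusted p of 0.259. petG, another small subunit of that complex, lay on the other side of 0 with 187, 298 and 185 and then 367, 287 and 237 (difference 0.40, limma, adjusted p = 0.503). Genes of 1 complex thus took both directions, and neither of this pair, which was chosen after its values were seen, passed the test. ndhC, an NDH subunit, gave 1295, 2129 and 1587 and then 1313, 1579 and 1497, with overlap. atpB, the ATP synthase beta subunit, gave 4022, 5689.9 and 4481 and then 3330.4, 4179 and 4307, with overlap and a difference of -0.26 (limma, adjusted p = 0.237).

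Counted without a test, 14 of the 20 gene expression genes (70%) were lower on every older Col-0 array than on any younger one, beside 28% of all tested probe sets. The same held for 3 of the 43 photosynthesis genes (6.98%). By complex, the median difference in Col-0 was -0.86 for the large ribosomal subunit, -0.64 for the small subunit and -0.45 for the polymerase. It was -0.24 for photosystem I, -0.13 for photosystem II, -0.20 for cytochrome b6f, -0.05 for ATP synthase and -0.10 for the NDH complex. rps14 and rpoB were the exceptions among the gene expression genes, with differences of 0.48 and 0.49. The ribosomal gene with the widest difference, rps15, went from 436, 913 and 659 to 247, 164 and 253 without overlap but stayed just outside the threshold, at -1.49 ± 0.57 (limma, adjusted p = 0.0511). Of the remaining named genes, clpP differed by -0.43, matK by -0.29 and accD by 0.04 (limma, adjusted p = 0.164, 0.306 and 0.939).

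Some control ratios differed with stage on the same arrays. The log2 ratio of 3' to 5' actin signal averaged 2.55 ± 0.35 (SD, n = 3) on the younger Col-0 arrays and 1.82 ± 0.23 on the older ones, with an exact permutation p = 0.1, the smallest that 3 against 3 allows. In SPH1 RNAi it was 2.67 ± 0.59 and then 1.95 ± 0.45 (exact permutation p = 0.2). A second actin control set on the array also gave exact permutation p = 0.1 in Col-0, and 0.3 in SPH1 RNAi. Both ubiquitin sets gave exact permutation p = 0.1 in Col-0, with 2.03 ± 0.48 and then 1.18 ± 0.12 in the first, and p = 0.7 and 0.6 in SPH1 RNAi. The GAPDH sets gave exact permutation p = 0.4 and 1 in Col-0, with 0.19 ± 0.18 and then 0.20 ± 0.03 in the second, and p = 0.3 and 0.5 in SPH1 RNAi. A ratio of this kind depends on how far labelling reached from the tail and on how intact the RNA was. These cannot be told apart here, and the part of the ratio in the stage results was not tested. The count of calls in Col-0 was 5 without Col-0 stage 1.05 replicate 2 and 12 without SPH1 RNAi stage 1.05 replicate 2.

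The older SPH1 RNAi rosettes again had more gene expression genes among the calls. Of the gene expression genes 3 of 20 fell (15%), and of the photosynthesis genes none of 43 passed, beside 10.2% of tested probe sets called in either direction, 4.46% called lower and 5.78% called higher. The 3 were rpl22, rpl36 and rpoA. rpl22 went from 1497, 1028 and 992 to 593, 506 and 589.7 and fell by 1.02 ± 0.24 (limma, adjusted p = 0.0221). rpl36 fell by 0.96 ± 0.24 and rpoA by 0.78 ± 0.22 (limma, adjusted p = 0.0283 and 0.0443). The rpoA call held in only 9 of 22 alternatives. No member passed without SPH1 RNAi stage 1.05 replicate 1 or without stage 1.14 replicate 2, and 7 passed without Col-0 stage 1.05 replicate 2.

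In SPH1 RNAi the median difference with stage was -0.51 over the gene expression genes and -0.18 over the photosynthesis genes. After quantile normalization these were -0.32 and 0.07, without SPH1 RNAi stage 1.05 replicate 1 -0.24 and 0.01, and without replicate 2 of that group -0.74 and -0.45. Lower without overlap were 8 of 20 gene expression genes (40%) and 10 of 43 photosynthesis genes (23.3%), beside 13.8% of tested probe sets. rps18 went from 719, 531 and 590.5 to 471, 375 and 353 and rpl33 from 2591, 2182 and 2411 to 1769.6, 1736 and 1458, both without overlap. Their differences of -0.60 and -0.53 missed the threshold (limma, adjusted p = 0.0694 and 0.0654). rps16 gave 337, 208 and 264 and then 167, 161 and 228, with overlap. The stage comparisons of the 2 genotypes share no arrays, and 18 of 20 gene expression genes and 23 of 43 photosynthesis genes were below 0 in both (90% and 53.5%), beside 37.4% of all tested probe sets. Lower without overlap in both genotypes were 7 of 20 gene expression genes and 2 of 43 photosynthesis genes, beside 10.6% of tested probe sets. Likeness between the genotypes was not particular to the gene expression genes. Their stage differences correlated at r = 0.74, beside 0.38 over the photosynthesis genes and 0.79 over all tested probe sets.

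**Figure D3:**
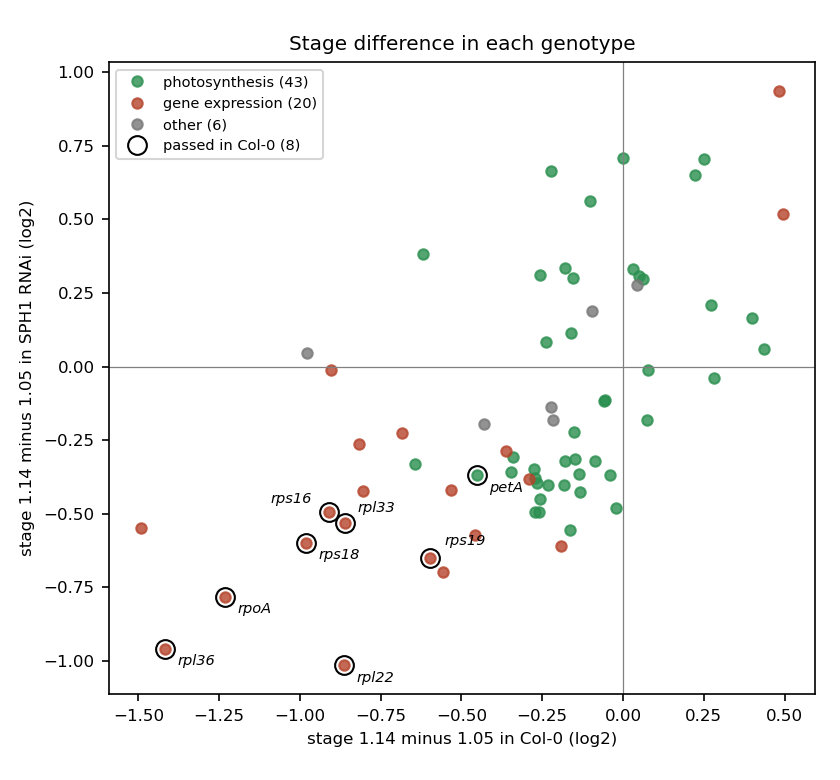
Each point is 1 of the 69 genes, placed by its log2 difference between stages 1.14 and 1.05 in Col-0 (horizontal) and in SPH1 RNAi (vertical). Red marks gene expression, green photosynthesis, grey other roles, and rings mark the 8 genes that passed in Col-0. The ringed genes lie below 0 on both axes, and 18 of the 20 red points do too.

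Setting the subsets against each other on each array removes only a shift shared by all plastid signals on it. Shifts that differ between genes remain, as on SPH1 RNAi stage 1.05 replicate 2, described below. Each gene was centred on its mean over the 12 arrays, and the median over the 20 gene expression genes was subtracted from the median over the 43 photosynthesis genes. The result was -0.21, -0.38 and -0.07 on the Col-0 arrays of stage 1.05 and 0.12, 0.46 and 0.26 at stage 1.14. In SPH1 RNAi it was -0.25, -0.20 and -0.03 at stage 1.05 and 0.04, 0.27 and 0.07 at stage 1.14. All 6 younger arrays lay below all 6 older arrays. The group means were -0.22 ± 0.15 and 0.28 ± 0.17 (SD, n = 3) in Col-0, and -0.16 ± 0.12 and 0.12 ± 0.13 in SPH1 RNAi. Since the members were chosen with results known, this contrast is given as a description with no p.

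**Figure D4:**
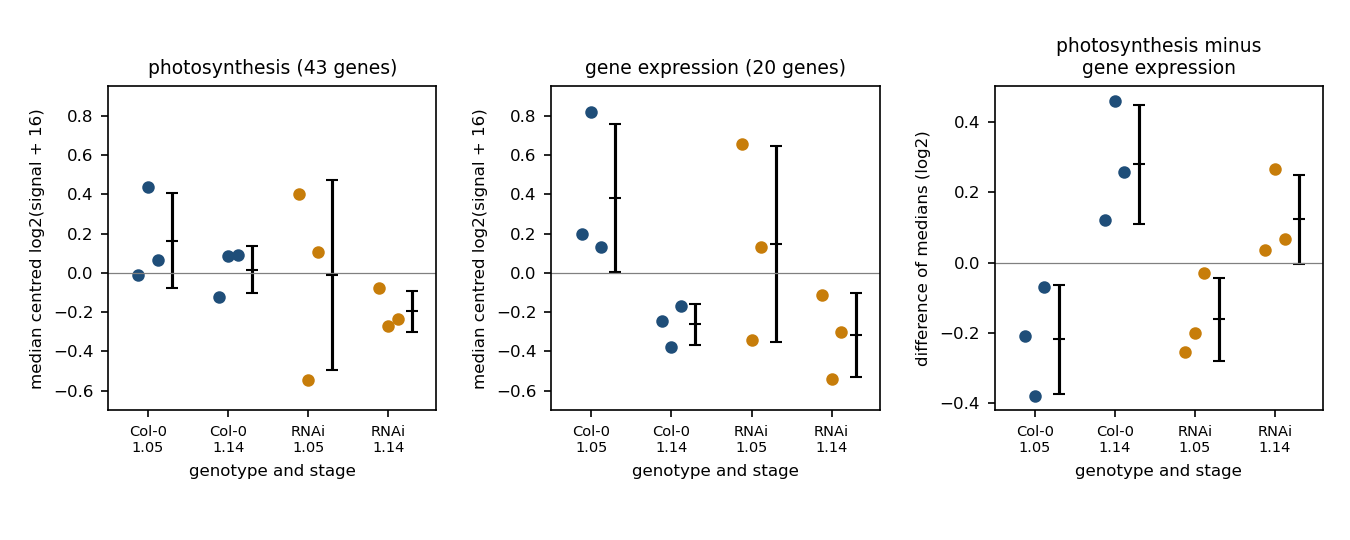
Points are arrays, with the median over 43 photosynthesis genes (left), over 20 gene expression genes (middle) and their difference (right), each on centred log2(signal + 16). Bars are group means ± SD (n = 3), blue is Col-0 and orange SPH1 RNAi. In the right panel the 6 arrays of stage 1.05 lie between -0.38 and -0.03 and the 6 of stage 1.14 between 0.04 and 0.46.

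By polymerase class the medians of the stage difference lay close together in Col-0. They were -0.18 over the 27 genes of the plastid-encoded polymerase class, -0.26 over the 38 genes of both and -0.16 over the 4 of the nucleus-encoded class. In SPH1 RNAi they were -0.31, -0.25 and -0.01. Of the 8 Col-0 calls, 7 lay in the class of both and 1 (petA) in the plastid-encoded class. None of the 4 nucleus-encoded class genes passed in any of the 5 comparisons. All 4 had values below 0 for SPH1 RNAi against Col-0 at both stages, with medians of -0.42 and -0.36. At stage 1.05 this rested on SPH1 RNAi replicate 2, without which the differences were -0.02 for rpoC2, 0.02 for rpoC1, -0.10 for rpoB and 0.06 for accD. The corresponding medians were -0.17 and -0.12 in the plastid-encoded class and -0.25 and -0.09 in the class of both. All 20 gene expression genes except rpoB, rpoC1 and rpoC2 are in the class of both, so function and polymerase class partly overlap in this set. That class also holds the ATP synthase and NDH genes. Within it the Col-0 stage medians were -0.05 for ATP synthase, -0.10 for NDH, and -0.64 and -0.86 for the small and large ribosomal subunits. In SPH1 RNAi these were -0.20, 0.21, -0.56 and -0.53. There the NDH genes were among those low on stage 1.05 replicate 2, described below.

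Gene order on the plastid genome, taken from the TAIR10.1 gene list, placed several of the genes that fell near each other. The members rpoA, rpl36, rpl14, rpl16, rps3, rpl22 and rps19 follow in that order, not all of them adjacent, and had Col-0 stage differences of -1.23, -1.42, -0.82, -0.81, -0.56, -0.86 and -0.60. Of these rpoA, rpl36, rpl22 and rps19 passed. In SPH1 RNAi the same run gave -0.78, -0.96, -0.26, -0.42, -0.70, -1.02 and -0.65. The run psaJ, rpl33, rps18, rpl20 mixes a photosystem gene with ribosomal genes, and gave -0.26, -0.86, -0.98 and -0.90 in Col-0. In SPH1 RNAi these 4 genes gave -0.49, -0.53, -0.60 and -0.01. Without SPH1 RNAi stage 1.05 replicate 2 they gave -0.60, -0.60, -0.69 and -0.58. The psbB run, psbB, psbT, psbN, psbH, petB, petD, stayed within -0.27 and 0.28 in Col-0. In SPH1 RNAi that run went from -0.40 for petB to 0.66 for psbN. Without SPH1 RNAi stage 1.05 replicate 2 it went from -0.57 for psbH to 0.42 for psbN. Neighbouring genes on the same strand can share a transcript, so the members of a run may not be independent measurements. The order went by start position without regard to strand, so which members share a transcript was not checked.

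The genotype comparison asks whether the RNAi construct altered plastid transcripts at either stage. At stage 1.05 none of the 69 members passed, beside 5.33% of tested probe sets called. An unadjusted limma p under 0.05 was reached by 5 members, beside 2658 of the 13263 tested probe sets. Weighting arrays by quality gave 2 calls among the members. The median of SPH1 RNAi minus Col-0 was -0.21 over the photosynthesis genes and -0.30 over the gene expression genes, and 51 of 69 values were below 0. rbcL had 1622, 237 and 728 in SPH1 RNAi against 1449.7, 1734 and 1176 in Col-0, with overlap. Its difference was -1.10 ± 0.47 (limma, adjusted p = 0.216). ndhE, for a membrane subunit of the NDH complex, was the only member of 69 lower on every SPH1 RNAi array than on any Col-0 array, beside 11.7% of tested probe sets, with 953, 245 and 605 against 1007, 1231 and 968 (difference -1.0, limma, adjusted p = 0.146), and it is named after its values were seen.

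These values rested on single arrays. Without SPH1 RNAi stage 1.05 replicate 2 the stage 1.05 medians were 0.07 over the photosynthesis genes and -0.02 over the gene expression genes, and the rbcL difference was -0.39. Without replicate 1 of that group 6 members passed, ndhE, ndhH, ndhJ, rbcL, ycf3 and ycf4. Some array measures differed between the genotypes at stage 1.05. Background was 118.93, 86.4 and 115.34 in Col-0 and 68.54, 79.46 and 70.34 in SPH1 RNAi. The 25S rRNA control averaged 2963 and 561. Both gave exact permutation p = 0.1, the smallest that 3 against 3 allows, and the 3' to 5' ratios gave 0.2 to 0.9. The part of these measures in the genotype results was not tested.

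At stage 1.14 none of the 69 members passed, beside 6.76% of tested probe sets called. None had an unadjusted limma p under 0.05, beside 3087 of the 13263 tested probe sets. That fit pools the spread of all 4 groups, and on the arrays compared alone 11 members had an unadjusted limma p under 0.05. Without overlap, 12 of the 69 were lower and 3 higher in SPH1 RNAi, beside 1370 and 2374 of the 13263 tested probe sets. Weighting arrays by quality gave 4 calls, psaA and psbH lower and ndhF and rps14 higher in SPH1 RNAi. The median was -0.23 over the photosynthesis genes, of which 40 of 43 were below 0, and -0.04 over the gene expression genes. These became -0.13 and 0.05 after quantile normalization and -0.12 and 0.07 without SPH1 RNAi stage 1.14 replicate 2, and the gene expression median was -0.15 without replicate 1 and -0.16 without replicate 3 of that group and near 0 without Col-0 stage 1.14 replicate 1 (-0.02) or replicate 3. psaA gave 992, 1890.1 and 973 in SPH1 RNAi against 2126, 2580 and 2751 in Col-0, without overlap, a difference of -1.01 ± 0.50 (limma, adjusted p = 0.255). psbA gave 2639, 1852 and 2681 against 2587, 3526 and 2989, with overlap, and a difference of -0.35 whose 95% interval ran -0.98 to 0.28. rps14 and ndhF were set by 1 array: rps14 gave 53, 35 and 348, and ndhF 63.4, 33.1 and 279.5, with the high value on replicate 3, the array with the highest background. The part of background was not tested. Without SPH1 RNAi stage 1.05 replicate 2, which enters only through the shared estimate of spread, 3 members passed as lower, psaA, psbD and ndhH.

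No member passed the genotype by stage interaction, beside 3.36% of tested probe sets called, and 0 were called under array weights. An unadjusted limma p under 0.05 was reached by 1 member, beside 2632 of the 13263 tested probe sets. The 4 members with the smallest interaction p were psbN, ndhC, rpl32 and rbcL. psbN, which encodes a small protein needed for photosystem II assembly, gave 184, 87.9 and 132 and then 162, 269 and 225 in SPH1 RNAi, against 320.3, 183 and 151 and then 191, 167 and 169.7 in Col-0. The interaction was 0.89 ± 0.40 (limma, adjusted p = 0.238). For ndhC it was -0.39, for rpl32 -0.42 and for rbcL 1.00 (limma, adjusted p = 0.419, 0.442 and 0.453). The median interaction was 0.36 over the gene expression genes and -0.07 over the photosynthesis genes, and -0.05 and -0.32 without SPH1 RNAi stage 1.05 replicate 2.

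That array stood apart for part of the plastid set. On it 30 of the 69 members (43.5%) were over 1 log2 unit below the mean of the other 2 arrays of its group, against 0.528% of all tested probe sets, and 56 were lower than both. The median deviation was -0.84 over the members and 0.05 over all tested probe sets. psaA gave 2067, 375 and 2048 on replicates 1, 2 and 3 of SPH1 RNAi stage 1.05, psbC 3111, 537 and 2489 and psbB 1204, 168 and 746. Other genes of the same complexes were closer to the remaining arrays. psaB, also lowest of the 3 there, gave 4562, 3346 and 4199, psbM 4923, 4453 and 4052 and ndhC 2082, 2278 and 1819. Of the genes in these examples, psbB, psbC and psbM were named after the values were seen. The share over 1 unit lower was 7 of 10 for the NDH complex, 19 of 43 for all photosynthesis genes and 8 of 20 for the gene expression genes.

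Replicate 2 of SPH1 RNAi stage 1.05 also had the highest actin ratio of the 12 arrays, 3.31, and the highest GAPDH ratio, 1.96, and was highest for both in the second control sets too, at 2.75 and 0.77. It was not highest for ubiquitin, where it gave 1.97 and 1.256 against 2.53 and 1.259 on Col-0 stage 1.05 replicate 2. The next highest actin ratio, 2.95, was that of Col-0 stage 1.05 replicate 2, on which 39 of 69 members had their highest signal. The part of these ratios in the low signals was not tested. The only other array with any member over 1 unit low was SPH1 RNAi stage 1.14 replicate 2, with 6 members.

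**Figure D5:**
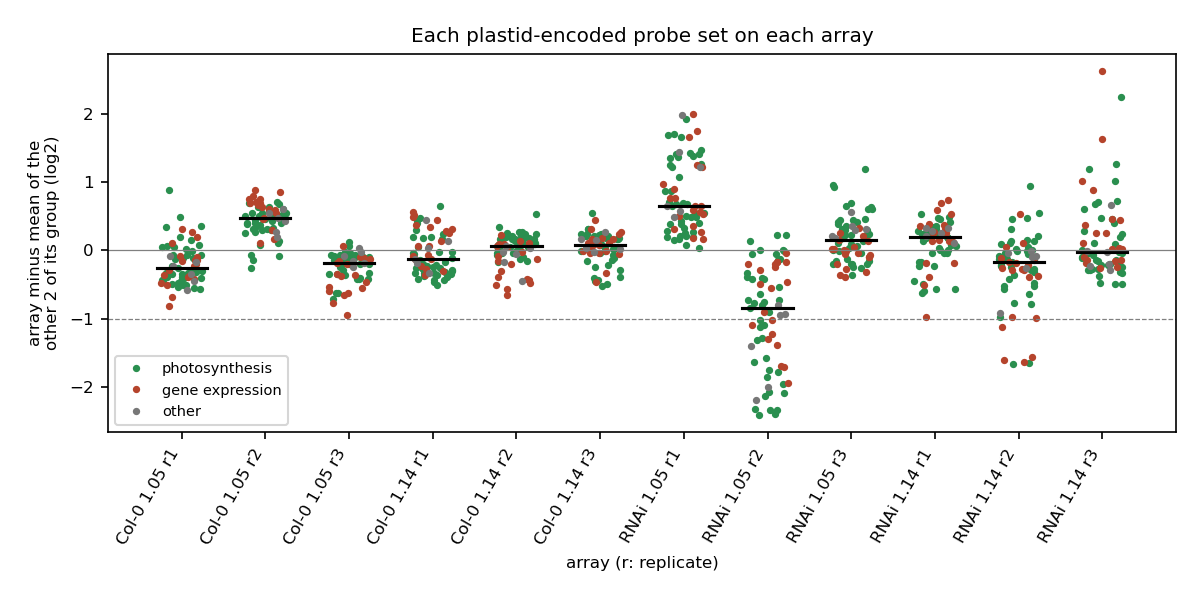
Each point is 1 of the 69 probe sets, placed by its log2(signal + 16) on an array minus the mean of the other 2 arrays of that group, with black bars at the medians. Green is photosynthesis, red gene expression, grey other roles, and the dashed line marks 1 unit below. SPH1 RNAi stage 1.05 replicate 2 has 30 points under that line and SPH1 RNAi stage 1.14 replicate 2 has 6.

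Probe sets outside the rule gave 2 points of comparison. Plastid probe sets that match both copies of a repeated gene number 8. Among them ycf1, which encodes a large protein of the inner envelope, gave 1111, 1787 and 1069.5 on the younger Col-0 arrays and 557, 554 and 477 on the older ones. The stages did not overlap, and it fell by 1.26 (limma, adjusted p = 0.00203). The other 6 tested did not pass. rpl2, rpl23 and rps7, for ribosomal proteins, differed by -0.45, -0.41 and -0.36, the rps12 pair by 0.14 and -0.39, and ndhB by -0.18 (limma, adjusted p from 0.0722 to 0.726). Mitochondrial genes had 23 named probe sets, of which 12 were tested. Their median stage difference in Col-0 was 0.24, with 4 higher and 1 lower, and in SPH1 RNAi 0.22 with none called. Of 23 listed nuclear genes for plastid transcription the annotation used here names 1, RPOTmp, whose signal was too low to test. It names none of 18 listed plastid RNA processing genes, whose probe sets may be among those without a name here, so the nuclear side of plastid gene expression was not analysed here.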

How the data were processed

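The 12 samples were hybridised to Affymetrix ATH1 arrays, 3 to a group, and the deposited values are the authors' linear signal intensities, 1 per probe set. The trimmed mean (2% from each end) was 100.01 on every array, so arrays were already scaled; how probes were summarised is not given in the sources used. Depth does not apply to arrays, and 3 arrays a group limit the precision. Of 22810 probe sets, 64 controls were left out. Genes came from the platform annotation, which names 1 gene for 13513 probe sets and several for 503. An offset of 16 was added before log2, and the 13263 probe sets with a mean of at least 32 were tested, including all 69 members. Groups were fitted together in limma 3.58.1 (R 4.3.3; lmFit, eBayes with intensity trend, 8 residual degrees of freedom), with Benjamini-Hochberg adjustment over all tested probe sets and calls at adjusted p under 0.05. The fit was tested on simulated data. The 5 comparisons were stage in each genotype, genotype at each stage, and their interaction. The members, subsets and gene lists were chosen with earlier results of these data known. Genes named by rule were a fixed list of core plastid genes, the 6 largest called changes per comparison and direction, and the 4 smallest interaction p. Other genes given with signals, such as atpB, rps15, psbB, psbC and psbM, lie outside this rule and are examples picked with the results known. Control 3' to 5' ratios were computed on the same offset scale; which control set and offset to use was decided after values were seen, so both sets are given. Replicate numbers did not clearly pair the arrays: deviations of same-numbered arrays correlated from -0.25 to 0.49 over 18 pairs, with a median of 0.02. For arrays of other numbers this was -0.49 to 0.38 over 36 pairs, with a median of -0.04. The 11 kinds of alternative covered offset, filter, scaling, weights, variance prior, samples fitted, block and leaving out each array.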

Additional observations from a re-analysis of the deposited data

How the results depend on the processing

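The fall of rpoA, rps16, rps18, rpl33 and rpl36 with stage in Col-0 passed in 22 of 22 alternatives, and that of rpl22 in 20. In SPH1 RNAi rpl22 passed in 20, rpl36 in 18 and rpoA in 9. The number of members called with stage in Col-0, 8, was 5 after quantile normalization, 16 with array weights, 17 with only the arrays compared and 5 to 12 with 1 array left out. In SPH1 RNAi the number, 3, was 6 with weights and 0 to 7 with 1 array left out. For genotype, 0 became 2 with weights and 0 to 6 with 1 array left out at stage 1.05. At stage 1.14 it became 4 with weights, 1 with only the arrays compared and 0 to 3 with 1 array left out. The interaction gave 0 throughout. These counts, and those under alternative settings in the Results, are given without the share of all tested probe sets called under the same setting. Their changes are therefore not read as results about the plastid genes alone. The photosynthesis minus gene expression median was 0.59 for stage in Col-0 (0.45 to 0.63 with 1 array left out). In SPH1 RNAi it was 0.33, and 0.12 with weights (0.19 to 0.36). For genotype it was 0.085 at stage 1.05 (-0.081 to 0.16), turning sign without Col-0 stage 1.05 replicate 1 (-0.081) or 2 (-0.028) or SPH1 RNAi stage 1.05 replicate 3 (-0.068). At stage 1.14 it was -0.18 (-0.24 to -0.026), and for the interaction -0.43 (-0.48 to -0.22). The cause of these moves was not tested. Adding the replicate number as a block gave 8, 3, 0, 0 and 0 calls, as without it, although the numbers did not clearly pair the arrays. With the block ndhC took the place of rpoA among the 3 in SPH1 RNAi (limma, adjusted p = 0.0484 and 0.0563). Over all members, 3 of the 8 called in Col-0 were lost under some alternative and 12 others passed under some, psaA and rpoB of them higher. In SPH1 RNAi all 3 were lost somewhere and 7 others passed. For the 19 named genes, 1935 values under alternatives kept their direction and side of the threshold, 17 passed newly, 21 no longer passed, and 93 that were never called changed sign. Low signals such as rpoB and rps14 lie near background and limit what can be read from them.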
